A study of Mus musculus with 6 samples.

Results

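The genes described here are 8 transcripts that link RNA handling to temperature: the cold-inducible RNA-binding protein genes Cirbp and Rbm3, the CDC-like kinase genes Clk1, Clk2, Clk3 and Clk4, and the SR splicing factor genes Srsf5 and Srsf6. They were taken by symbol, 1 row each, from the 52183 genes of the deposited table, and all 8 passed the filter on low values. The list was selected on earlier results of the comparison between the groups, so the levels and changes of its members are given as a description. Where a member is said to pass or miss a threshold of the fit over all genes, that too describes values that chose it and supports nothing. Haematopoietic stem cells, the source of the RNA, had been sorted by flow cytometry from bone marrow of female mice at 4 months of age. The labels give 3 libraries the genotype control, not described further, and 3 the genotype Thbs1 knockout. Every library was prepared from 2 ng of total RNA with the SMART-Seq v4 kit. The sources used here do not say which exons of Thbs1 were deleted, in which cells, or whether each library stands for a separate animal. The spread between libraries may therefore be technical.

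CIRBP and RBM3 are small glycine-rich proteins with a single RNA recognition motif. Mild cooling raises their transcripts and warming lowers them, and both proteins bind messenger RNA and affect its stability, translation and polyadenylation. CLK kinases phosphorylate the arginine- and serine-rich tails of SR proteins in nuclear speckles, which frees these splicing factors to act, and CLK activity rises as cells cool within the physiological range. Transcripts of Clk1 and Clk4 are known to be held in the nucleus with retained introns and to be spliced on heat shock, so a transcript level need not follow the level of translatable messenger RNA.

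Levels are in FPKM, fragments scaled to the exon length of the gene and to the fragments mapped in the library. Thbs1, the targeted gene, reached 4.12, 13.8 and 2.33 FPKM in control libraries 1 to 3, against 10.8, 8.50 and 7.68 FPKM in knockout-labelled libraries 1 to 3 (log2 change 0.65 ± 0.43 SE, limma adjusted p = 0.503). Without control library 2 the change was 1.26 (adjusted p = 0.0343). A lower level, which would have borne out the label, was thus not seen, and each direction given here follows the labels alone. The steps between FPKM values of short genes correspond to depths between 22730000 and 30890000 reads. The 12 stem cell markers examined, among them Kit, Procr and Mecom, were all read, with summed levels of 809.9 to 907.1 FPKM in the control libraries and 805.1 to 917.3 FPKM in the libraries labelled knockout. Ly6a, the stem cell antigen Sca-1 and 1 of the 12, was itself lower (115 ± 6.78 and 76.9 ± 11.1 FPKM, log2 change -0.58 ± 0.10 SE, limma adjusted p = 0.0286). Of the markers of other cell types, only the neutrophil gene Ly6g was at 0 in all 6 libraries. Summed markers of megakaryocytes and platelets (6 genes) ran from 385 to 487 FPKM in control and from 266 to 373 FPKM in knockout-labelled libraries, those of T and NK cells (7 genes) from 74.8 to 101 and from 52.4 to 65.5 FPKM, and those of B cells (6 genes) from 27.5 to 30.1 and from 23.5 to 25.8 FPKM. These 3 sums did not overlap between the groups, and their part in the results was not tested. Only 2 of the 7 T and NK cell genes and 1 of the 6 B cell genes passed the filter on low values. Nkg7 and Cd79b were the highest of these 2 lists, and their faintest genes reached no more than 0.02 and 0.01 FPKM. The lymphoid sums thus rest on few genes. Sums of myeloid (415 to 483 and 387 to 433 FPKM), erythroid (95.7 to 116 and 60.9 to 129 FPKM) and endothelial or stromal markers (9.56 to 11.2 and 9.46 to 11.8 FPKM) overlapped. Of the markers of other cell types, Nkg7 of T and NK cells (log2 change -0.68, limma adjusted p = 0.0332) and the globin gene Hbb-bt (-1.61, adjusted p = 0.00247) fell. These 3 marker genes are named after their values were seen. In bulk RNA, fewer cells of a type and less RNA per cell cannot be told apart.

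The promoter of Cirbp carries a sequence known from work on cold induction, the mild cold-responsive element TCCCCGCC, and is shown because Cirbp differed most between the groups. The stretch below lies on chromosome 10 from 80167589 to 80167777 (chr10:80167589-80167777, GRCm38.p6, plus strand, RefSeq), is 189 bases long and stops short of the annotated exon downstream. GENCODE release M21 also lists an upstream start, so the stretch lies inside the span it gives for the gene. The capitals mark the element.
Cirbp promoter: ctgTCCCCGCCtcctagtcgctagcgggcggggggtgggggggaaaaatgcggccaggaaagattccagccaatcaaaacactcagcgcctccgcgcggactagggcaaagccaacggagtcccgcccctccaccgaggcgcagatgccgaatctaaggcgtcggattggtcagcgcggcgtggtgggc
The element starts 247 bases before the RefSeq start of the transcript. Searched on both strands of the 250 bases before each start, TCCCCGCC was found in 4.64% of 32851 RefSeq promoters. Of the members, Cirbp, Clk2, Clk3, Clk4, Srsf5 and Srsf6 matched the promoter table, and Cirbp alone among them held the element, in 1 of its 2 listed promoters. The palindromic E-box CACGTG, a site bound by MYC and by the CLOCK and BMAL1 pair, was found once in the Clk2 promoter (6.02% of all promoters hold it). The cAMP response element TGACGTCA was found once in the Clk4 promoter (1.55% of all promoters). Neither of the paired heat shock half-sites searched, GAANNTTC and TTCNNGAA, lay in the promoters of these 6 genes, whereas 6.69% and 7.17% of all promoters held them. Such matches describe the letters of these windows and say nothing on binding.

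Cirbp (ENSMUSG00000045193, chromosome 10, 80165985 to 80172786, GRCm38), which encodes the cold-inducible RNA-binding protein also known as hnRNP A18, was lower in the libraries labelled knockout. In control libraries 1 to 3 its level was 73.6, 74.8 and 83.7 FPKM, and in knockout-labelled libraries 1 to 3 it was 43.6, 41.3 and 41.0 FPKM. Every control library lay above every library labelled knockout, with a gap of 29.96 FPKM between the nearest pair. The means were 77.4 ± 5.51 and 41.98 ± 1.42 FPKM (SD, n = 3 each), so that the knockout-labelled level was 54.3% of the control level. On the log2(FPKM + 1) scale, the fitted change was -0.86 ± 0.07 (moderated SE), and 76 of the 12555 tested genes had a lower one. Each of these values rests on 2749 to 4964 reads. No transcript of another gene matched that of Cirbp at 90% identity over at least 200 bases, and no annotated gene overlapped it.

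Rbm3 (ENSMUSG00000031167, chromosome X, 8138975 to 8145880), the other classic cold-inducible RNA-binding protein gene, was lower by a smaller step. Its levels were 65.8, 68.3 and 71.6 FPKM in control libraries 1 to 3, against 55.6, 51.9 and 53.5 FPKM in knockout-labelled libraries 1 to 3, from 6347 to 8070 reads. The groups did not overlap, and the gap between the nearest libraries was 10.2 FPKM. The means of 68.6 ± 2.89 and 53.7 ± 1.85 FPKM (SD, n = 3 each) put the knockout-labelled level at 78.3% of the control level, with a log2 change of -0.35 ± 0.07 SE. Rbm3 has 4 processed pseudogenes whose sequences are 96.1% to 99.4% identical to it over 223 to 465 bases, Rbm3-ps, Gm10156, Gm13624 and Gm48583. Reads counted on them came to between 0.829% and 1.05% of those counted on Rbm3. A stretch of 380 bases in Phospho2 is also 97.4% identical to Rbm3, and Phospho2 was read at 12.3 to 14.2 FPKM in control and 12.2 to 13.3 FPKM in knockout-labelled libraries. Over its whole length Phospho2 held 15.9% to 23.4% as many reads as Rbm3. How many reads of these copies were counted on Rbm3 was not tested. The antisense transcript Rbm3os shares 94 bases of exon with Rbm3 and was read at 0.760 to 1.74 FPKM over the 6 libraries. The kit does not mark strand, so reads of that shared stretch cannot be assigned.

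The ratio of this pair differed between the groups. In control libraries 1 to 3 the FPKM of Cirbp was above that of Rbm3, with ratios of 1.12, 1.09 and 1.17. In knockout-labelled libraries 1 to 3 it was below, with ratios of 0.784, 0.796 and 0.767. The side of 1 on which a ratio falls depends on the exon lengths, 2604 bases for Cirbp and 4698 bases for Rbm3. By estimated reads, Cirbp (2749 to 4964) lay below Rbm3 (6347 to 8070) in every library. The mean ratio was 1.13 ± 0.0380 in control libraries and 0.782 ± 0.0145 in those labelled knockout (SD, n = 3 each). A ratio within a library does not depend on scaling between libraries. It shows an unequal change of the pair and not the change of either gene alone. Set against Srsf6, whose levels overlapped between the groups, Cirbp stood at 0.812 ± 0.0405 and 0.446 ± 0.0273, and Rbm3 at 0.720 ± 0.0218 and 0.570 ± 0.0409. Neither ratio overlapped between the groups.

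**Figure D1:**
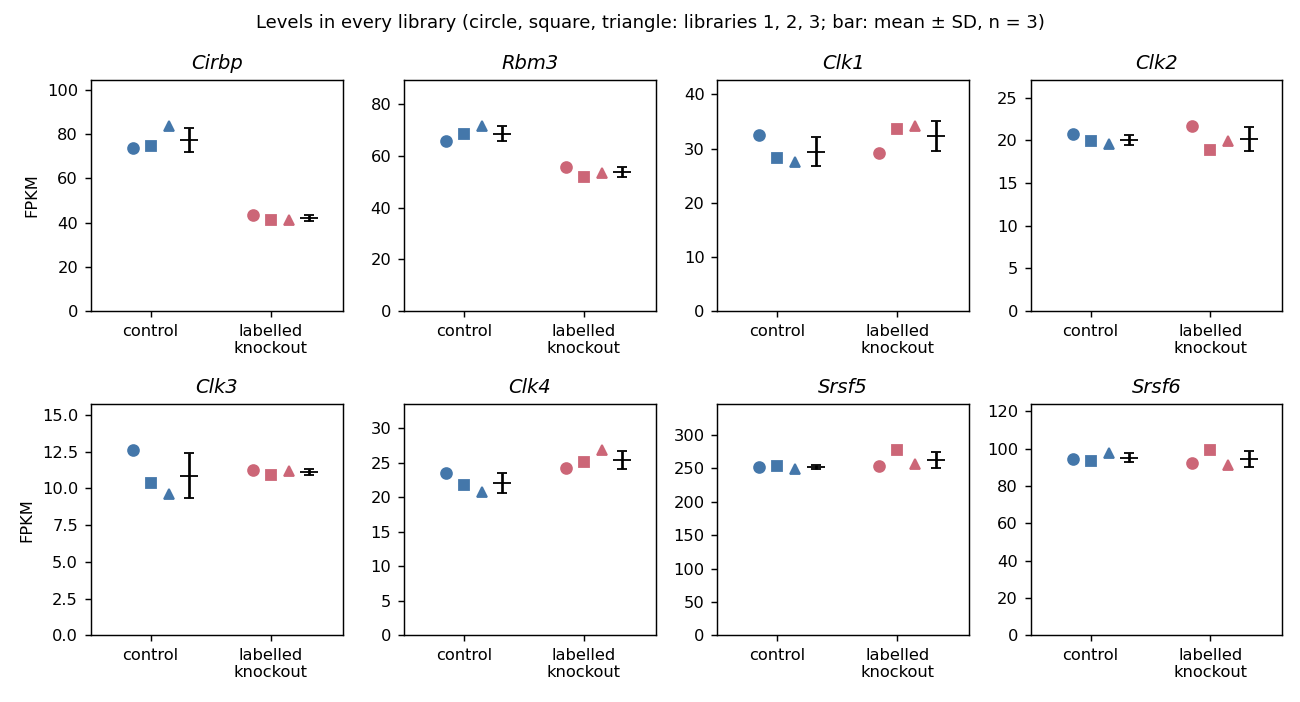
FPKM of the 8 genes in each library, 1 panel a gene, with control libraries in blue, libraries labelled knockout in red, and bars for the mean ± SD of 3 libraries. Cirbp (73.6 to 83.7 against 41.0 to 43.6 FPKM) and Rbm3 (65.8 to 71.6 against 51.9 to 55.6 FPKM) separate downwards, while the other panels overlap or, for Clk4, differ by 0.630 FPKM between the nearest libraries.

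None of the 4 CLK kinases passed the threshold, an adjusted p of 0.05 in the limma fit, which 1.56% of all tested genes passed. Their levels rest on 1850 to 7320 reads a library. Clk4 (ENSMUSG00000020385, chromosome 11, 51261730 to 51281766), the close relative of Clk1, reached 23.6, 21.9 and 20.8 FPKM in control libraries 1 to 3, against 24.2, 25.1 and 26.8 FPKM in knockout-labelled libraries 1 to 3. All knockout-labelled values were the higher ones, but only 0.630 FPKM separated the nearest pair, and the means were 22.1 ± 1.38 and 25.4 ± 1.32 FPKM (SD, n = 3 each). The log2 change was 0.19 ± 0.08 SE and did not pass the threshold. A miscellaneous RNA gene, Gm25082, lies on the same strand and shares 59 bases of exon with Clk4, and was read at no more than 1.83 FPKM.

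Clk1 (ENSMUSG00000026034, chromosome 1, 58410189 to 58424066), which had the highest FPKM of the kinases in every library, reached 32.5, 28.3 and 27.6 FPKM in control libraries, against 29.1, 33.5 and 34.2 FPKM in those labelled knockout. Control library 1 lay above knockout-labelled library 1, so the groups overlapped, and the log2 change was 0.13 ± 0.09 SE. Clk2 (ENSMUSG00000068917, chromosome 3, 89164795 to 89176921), a kinase also known to act in insulin signalling, was read at 20.7, 19.9 and 19.6 against 21.7, 18.8 and 19.9 FPKM. Its groups overlapped throughout, with means of 20.1 ± 0.571 and 20.1 ± 1.44 FPKM and a log2 change of 0.00315 ± 0.0802 SE.

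Clk3 (ENSMUSG00000032316, chromosome 9, 57750624 to 57765860), with the lowest FPKM of the kinases here, was read at 12.6, 10.4 and 9.63 against 11.3, 10.9 and 11.2 FPKM. The control libraries spread more widely than those labelled knockout (SD of 1.54 against 0.175 FPKM), and the log2 change was 0.04 ± 0.11 SE. The neighbouring gene Edc3, which encodes a decapping factor and runs on the opposite strand, shares 1284 bases or 15.2% of the exon sequence of Clk3. It was read at 21.2 to 28.5 FPKM, so part of the Clk3 signal may belong to Edc3, and this could not be resolved without strand. Summed over the 4 kinases, levels were 82.5 ± 6.11 FPKM in control libraries and 88.9 ± 2.92 FPKM in those labelled knockout. Clk1 made up 35.7% and 36.3% of that sum, Clk4 26.8% and 28.5%, Clk2 24.4% and 22.7%, and Clk3 13.1% and 12.5%. The order Clk1, Clk4, Clk2, Clk3 held in each of the 6 libraries. Clk4 and Clk2 were closest in control library 3 (20.8 and 19.6 FPKM) and farthest apart in knockout-labelled library 3 (26.8 and 19.9 FPKM). In control libraries the gap between their means was larger than either SD.

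The SR protein genes had the highest FPKM of the members, and neither passed the threshold. Srsf5 (ENSMUSG00000021134, chromosome 12, 80945504 to 80950507), which encodes SRp40, an exon-enhancer binding splicing factor, reached 252.4, 254.2 and 248.4 FPKM in control libraries, against 253.9, 277 and 257 FPKM in those labelled knockout. The control library with the highest value lay above the lowest knockout-labelled one by 0.30 FPKM, so the groups overlapped narrowly, and the log2 change was 0.06 ± 0.07 SE. Srsf6 (ENSMUSG00000016921, chromosome 2, 162931528 to 162937121), which encodes SRp55, was read at 94.6, 93.2 and 97.7 against 92.5, 99.1 and 91.2 FPKM, with a log2 change of -0.01 ± 0.06 SE. It shares chromosome 2 with Thbs1 at a distance of 44.8 Mb. The ratio of Srsf5 to Srsf6 was 2.67, 2.73 and 2.54 in control libraries and 2.74, 2.79 and 2.82 in those labelled knockout, so the nearest libraries of the groups were at 2.73 and 2.74. A processed pseudogene of Srsf5, Gm12966, is 99.0% identical over 810 bases and held no more than 0.205% as many reads as Srsf5.

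**Figure D2:**
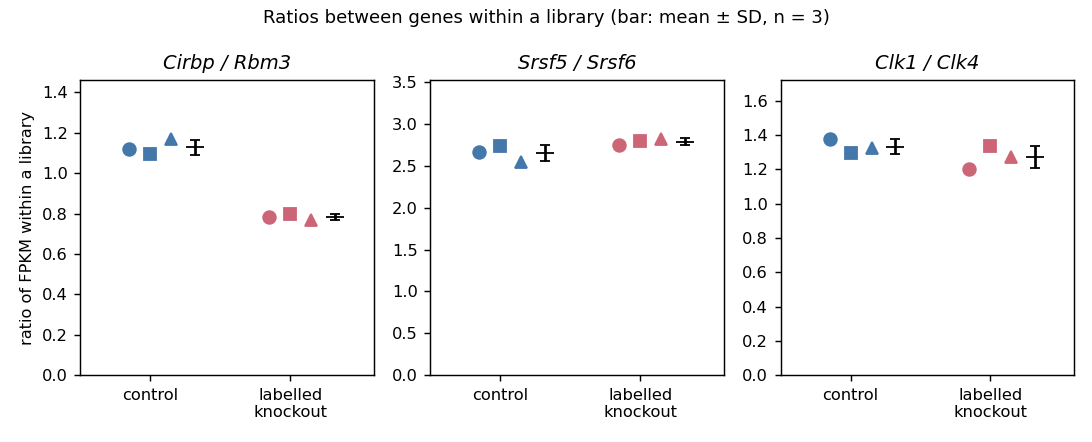
Ratios of FPKM within a library for Cirbp to Rbm3, Srsf5 to Srsf6 and Clk1 to Clk4, with 1 point a library and bars for the mean ± SD of 3 libraries. The Cirbp to Rbm3 ratio lies above 1 in each control library and between 0.767 and 0.796 in those labelled knockout, while Clk1 to Clk4 overlaps between groups. Whether a ratio exceeds 1 depends on the exon lengths that enter FPKM.

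Set beside all genes, the members divide into a pair that was lower and 6 that did not pass. Of the 8 members, 2 were past an adjusted p of 0.05 (limma, over all 12555 tested genes) and lower, Cirbp and Rbm3, and 0 were higher. Over all tested genes 1.56% passed, with 0.996% lower and 0.566% higher. Groups did not overlap for 2 lower members and 1 higher member, against 10.1% and 12.6% of all tested genes. Since earlier results chose the members, nothing is read from these shares. The median log2 change of the 8 members was 0.02, against 0.01 for all tested genes. Over 15 alternative settings, the log2 change of Cirbp lay between -0.90 and -0.67 and that of Rbm3 between -0.39 and -0.15. Rbm3 missed the threshold in 11 of them, among others when any of the 6 libraries was left out (changes between -0.38 and -0.32) and under a median-of-ratios scaling.

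Rescaling each library to sum to 1000000, the unit called TPM, moved the members as it moved other genes. Before rescaling, the FPKM of a library summed to 373903 to 408725 in control and to 329434 to 339652 in knockout-labelled libraries. The median of all tested genes shifted to 0.19 on the log2 scale. Under TPM, the changes of Cirbp and Rbm3 were -0.67 and -0.15, or -0.86 and -0.34 relative to that median. Clk4 and Srsf5 then passed the threshold with changes of 0.40 and 0.26, or 0.21 and 0.07 relative to the median. Srsf6 turned from -0.01 to 0.19 with the same shift. The share of all calls that were higher went from 36.2% to 94.0%, and the related lists described next moved likewise: under TPM 7 other SR genes, 5 hnRNP genes, 15 heat-shock genes and 6 clock genes were called higher.

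**Figure D3:**
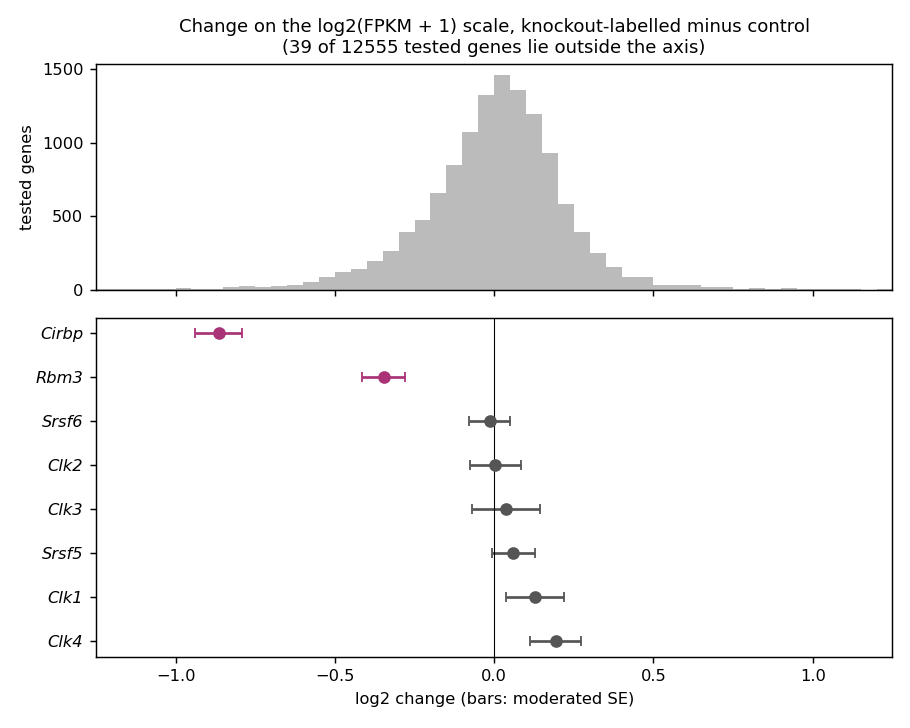
Upper panel: number of tested genes by log2 change, knockout-labelled minus control, in bins on the same axis. Lower panel: change of each of the 8 genes with its moderated SE, in purple where the adjusted p over all genes was below the threshold. Cirbp at -0.86 lies in the thin lower tail of the distribution, Rbm3 at -0.35 on its shoulder, and the other 6 between -0.01 and 0.19.

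**Figure D4:**
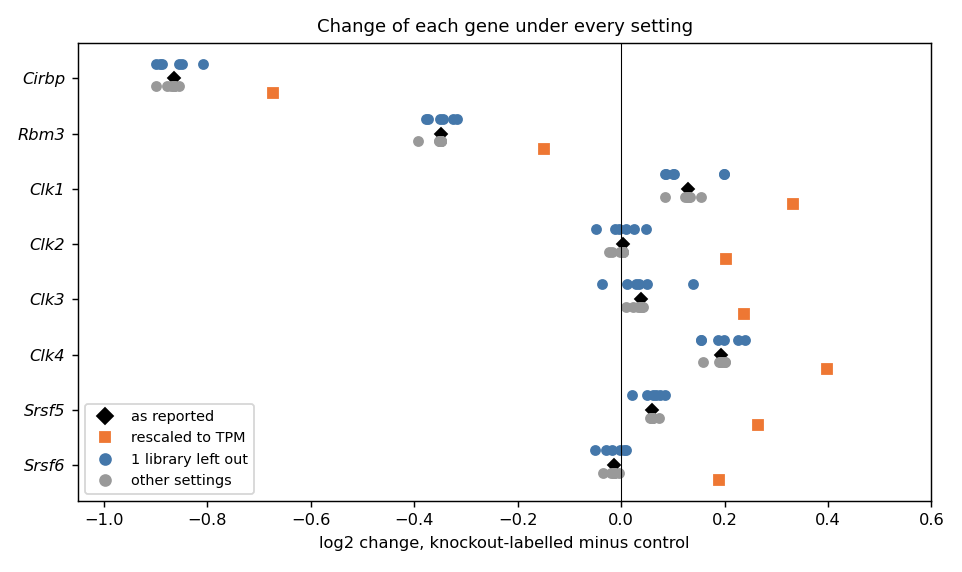
Log2 change of each gene under each setting, with black diamonds for the reported value, blue circles for fits without 1 library, orange squares for TPM and grey circles for the other settings. Points of Cirbp stay between -0.90 and -0.67. The TPM point of each of the 8 genes lies to the right of its reported value by about as much as the median of all tested genes moved, to 0.19 under TPM.

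The FPKM of a member sums all its annotated isoforms. In GENCODE release M21, 4 of 7 Cirbp transcripts and 7 of 13 Clk1 transcripts are classed as retained introns, as are 7 of 14 of Clk4, 4 of 11 of Clk2, 4 of 9 of Clk3, 2 of 11 of Rbm3, 3 of 12 of Srsf5 and 1 of 4 of Srsf6. Each member also has at least 1 transcript marked for nonsense-mediated decay. Gene-level values cannot show whether productive and unproductive isoforms changed apart. They also bear on the comparison of levels between genes, since merged exons that include retained introns make the length of Clk1 8132 bases and that of Cirbp 2604 bases, and a longer length gives a lower FPKM.

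The spread within a group was small for most members. The coefficient of variation over control libraries ran from 1.18% for Srsf5 to 14.2% for Clk3, and over libraries labelled knockout from 1.57% for Clk3 to 8.50% for Clk1. Tested genes with a control mean of at least 10 FPKM had medians of 7.49% and 6.78%. Cirbp stood above 94.0% of tested genes by its control level, Rbm3 above 93.0%, Srsf5 above 98.8% and Clk3 above 56.1%.

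Other genes of the splicing pathway were called at shares to be read against 1.56% of all tested genes, and 2057 of the 12555 tested genes had an unadjusted p below 0.05. Of 10 other SR proteins tested, 1 was higher, 0 were lower and 9 were not called, with a median log2 change of 0.12. The called gene, Tra2b, encodes an SR-like splicing activator and rose from 71.6, 71.99 and 70.5 to 88.6, 95.4 and 91.5 FPKM (log2 change 0.36 ± 0.06 SE, limma adjusted p = 0.0288). It lost the call when any library was left out, with adjusted p over its alternatives from 0.00619 to 0.124. Srsf7, the most abundant SR gene, stood at 373 ± 13.1 and 459 ± 21.7 FPKM (adjusted p = 0.0836), Tra2a at 11.1 ± 0.273 and 13.5 ± 1.08 FPKM (adjusted p = 0.192), and Srsf11 at 32.3 ± 2.36 and 36.3 ± 2.53 FPKM (adjusted p = 0.372). By mean control level, Srsf5 ranked 2 and Srsf6 ranked 7 among the 13 SR genes read, and they held these ranks by the mean of the libraries labelled knockout. Srsf1 and Srsf6 did not differ beyond their spread in that order (98.6 ± 7.01 and 95.2 ± 2.29 FPKM in control). In knockout-labelled library 3, Tra2b (91.5 FPKM) was read above Srsf6 (91.2 FPKM).

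Of 15 other kinases and phosphatases that act on SR proteins or belong to the families of the CLK kinases, 0 passed the limma test, and 2 had an unadjusted p below 0.05, Hipk1 (16.8 ± 1.58 and 13.2 ± 0.604 FPKM, adjusted p = 0.130) and Dyrk3, which dissolves nuclear condensates (12.4 ± 1.44 and 16.8 ± 3.39 FPKM, adjusted p = 0.202). Dyrk2 stood at 5.01 ± 0.515 and 4.08 ± 0.526 FPKM (adjusted p = 0.383). Of 27 hnRNP genes, which often oppose SR proteins in splice site choice, 1 was lower and 26 were not called. Their median log2 change was -0.09, and 0.12 under TPM, against 0.01 and 0.19 for all tested genes. Hnrnpl fell from 98.2, 102.1 and 103.9 to 81.0, 83.9 and 80.9 FPKM (log2 change -0.30 ± 0.06 SE, adjusted p = 0.0486), and lost the call in 12 of 15 alternatives, among them each fit without 1 library (adjusted p from 0.0180 to 0.261 over all 15). Hnrnpa0 stood at 33.8 ± 5.42 and 23.7 ± 1.42 FPKM (adjusted p = 0.0697), Hnrnpdl at 51.1 ± 3.25 and 37.2 ± 5.79 FPKM (adjusted p = 0.0857) and Hnrnpd at 62.4 ± 4.34 and 48.1 ± 5.66 FPKM (adjusted p = 0.0992).

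CLK kinases act in nuclear speckles. Among 25 genes of these bodies and of SR-related proteins, limma called 0, and the unadjusted p of 5 was below 0.05. Luc7l, a U1-associated factor, stood at 28.1 ± 2.41 and 35.8 ± 0.968 FPKM (adjusted p = 0.0766), Son, a speckle scaffold, at 19.8 ± 1.20 and 15.95 ± 0.990 FPKM (adjusted p = 0.130), and Acin1 at 15.4 ± 0.159 and 12.9 ± 0.340 FPKM (adjusted p = 0.172). Among the 19 tested cold-shock domain proteins and further RNA-binding proteins, limma called 0 and 5 had an unadjusted p below 0.05. Rbm10 stood at 30.2 ± 0.857 and 36.1 ± 2.17 FPKM (adjusted p = 0.137), Rbm14 at 18.1 ± 0.720 and 22.2 ± 2.90 FPKM (adjusted p = 0.205) and Elavl1, which encodes the stabilising factor HuR, at 35.9 ± 1.39 and 40.8 ± 0.428 FPKM (adjusted p = 0.213).

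The heat-shock genes, which answer to warming, included 7 that rose. This list includes chaperones already known to be higher in these libraries, so it is not independent support. Of 21 tested heat-shock genes 7 rose, 0 fell and 14 were not called, with a median log2 change of 0.30. Over all tested genes 0.566% were called higher and 0.996% lower. Hspa8, the constitutive HSP70, rose from 359, 320.8 and 351.8 to 666.8, 602.1 and 591.7 FPKM (log2 change 0.85 ± 0.08 SE, limma adjusted p = 0.000921). Dnaja1, an HSP40 co-chaperone, rose from 27.8, 24.8 and 25.8 to 43.5, 39.8 and 40.7 FPKM (log2 change 0.64 ± 0.08 SE, adjusted p = 0.00381). The other 5 were Hsph1, Hspa1b, Stip1, Dnajb1 and Fkbp4, with log2 changes of 0.91, 1.70, 0.43, 0.48 and 0.38 (limma adjusted p = 0.00383, 0.0112, 0.0290, 0.0332 and 0.0377). Dnaja1 kept the call in all 15 alternatives, Hspa8, Hsph1 and Hspa1b lost it without a filter on low values, and Stip1, Dnajb1 and Fkbp4 each lost it in at least 8. Hspa1b has a near-identical copy, Hspa1a, so its reads may be split. Hsf1, which encodes the heat shock transcription factor, stood at 45.9 ± 0.598 and 56.9 ± 4.89 FPKM (adjusted p = 0.0980), Chordc1 at 16.7 ± 1.43 and 22.2 ± 1.03 FPKM (adjusted p = 0.0665) and Hspd1 at 139 ± 6.68 and 178 ± 18.7 FPKM (adjusted p = 0.0843).

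Circadian clock genes were examined because CIRBP binds transcripts of the clock and cycles with body temperature. Clock itself, Npas2 and Bhlhe41 did not pass the filter on low values and were not tested. Of 18 tested, 1 rose, 0 fell and 17 were not called, with a median log2 change of 0.23, beside 0.566% of all tested genes called higher. The log2 change was above 0 for 12 of the 18 and below 0 for 6. Nr1d1, which encodes the clock repressor REV-ERB alpha, rose from 3.69, 2.60 and 3.15 to 5.74, 6.19 and 5.13 FPKM (log2 change 0.69 ± 0.14 SE, limma adjusted p = 0.0401), a call lost in 9 of 14 alternatives, among them every fit without 1 library. The period genes Per2 (3.77 ± 0.625 and 6.38 ± 0.929 FPKM, adjusted p = 0.0726) and Per1 (4.47 ± 0.985 and 7.18 ± 1.15 FPKM, adjusted p = 0.107) did not pass, nor did Csnk1d, a kinase that phosphorylates PER proteins (53.5 ± 4.25 and 65.5 ± 1.31 FPKM, adjusted p = 0.0996). Per3, added to complete the period genes, stood at 4.69 and 4.43 FPKM (log2 change -0.07, limma adjusted p = 0.853). The sources used here do not give the time of day at which cells were collected.

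**Figure D5:**
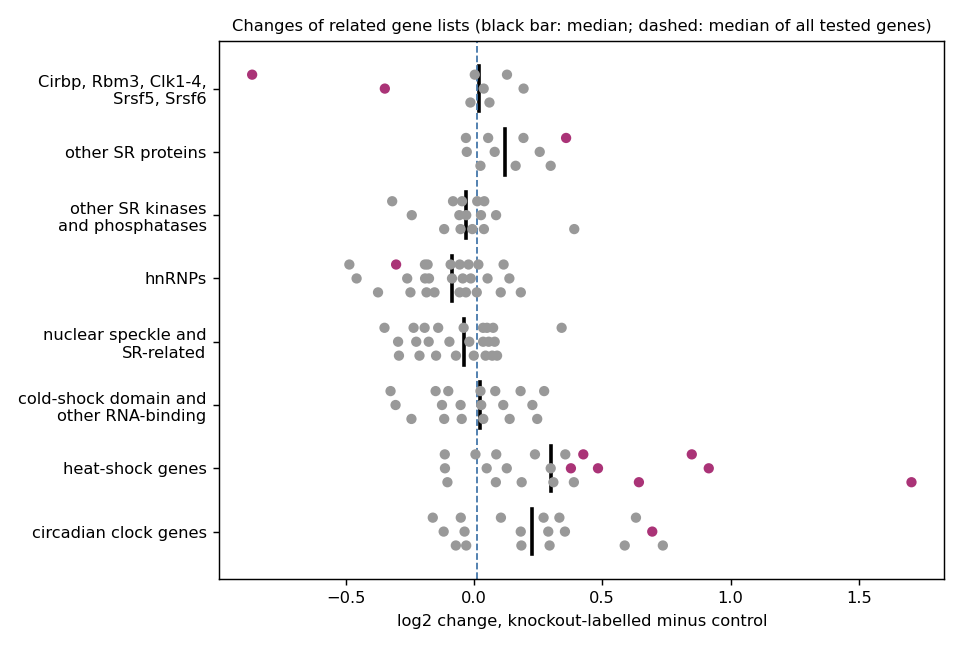
Log2 change of every tested gene of the member list and of 7 related lists, knockout-labelled minus control, with purple points for an adjusted p below the threshold, black bars for list medians and a dashed line for the median of all tested genes, 0.01. The medians of heat-shock genes (0.30) and clock genes (0.23) lie to the right of that line and that of hnRNP genes (-0.09) to its left. Single genes of these lists lie on either side, and the vertical offset of points within a row has no meaning.

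Genes with the profile most like that of a member were sought over the 6 libraries, by the root mean square difference of log2(FPKM + 1) values centred on each gene's own mean. Nearest to Cirbp were the gene models Gm5111 (0.0691) and Gm28875 (0.0707) and the kinase gene Stk24 (0.0918), which was read at 30.3 ± 0.685 and 17.5 ± 1.27 FPKM. Nearest to Rbm3 were Pdia3, a disulfide isomerase of the endoplasmic reticulum (0.0195), Ndrg1, a stress-responsive gene (0.0339), and Wasf2, an actin regulator (0.0354). These are neighbours by profile alone.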

How the data were processed

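Values are FPKM for 52183 genes in 6 libraries, made by the authors and deposited as 1 table. Per the submitters' processing notes, STAR, edgeR and FastQC 0.11.5 were used, with the builds GRCm38 and mm10. How reads were counted, and on which annotation, is not given in the sources used here. All 52183 identifiers matched GENCODE release M21, which gave positions and merged exon lengths. Depth was taken from genes with at most 400 bp of exon. It was the value that turned the most of their FPKM into whole reads within 0.1 read (99.4% to 99.7% of them). Read numbers given here were worked back from FPKM, merged exon length and that depth, so they are estimates. Their error is at least that of counting. Replicates differed by more than sampling noise (chi-square over degrees of freedom 7.55 to 13.8).

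A gene entered the test if 3 or more libraries reached 1 FPKM (12555 genes). The test was that of limma 3.58.1 (R 4.3.3, eBayes with trend, two-sided) on log2(FPKM + 1), and p-values were adjusted by Benjamini-Hochberg over all of them, with a threshold of 0.05. This scale understates changes of low genes. Members and lists were chosen with earlier results of these data known. Named genes are the members, Thbs1, the called genes of each list with up to 3 next by p, and the 3 nearest profiles of the 2 members that changed most. Per3 was added to complete the period genes. Near copies were sought with BLAST 2.17.0 on GENCODE transcripts. Alternatives changed the scaling (TPM, median of ratios, quantiles), the filter (none, or 5 FPKM on average), the pseudocount (0.1), the fit (array weights, no trend, a block for the replicate number) or the libraries (each left out in turn). The kit does not mark strand, so reads of overlapping genes cannot be told apart.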

Additional observations from a re-analysis of the deposited data

How the results depend on the processing

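Over all tested genes 71 were higher and 125 lower. Higher genes numbered 8 without a filter, 112 with a mean of at least 5 FPKM, 2016 under TPM, 24 without the trend and 112 with array weights. Lower genes numbered 16 without a filter and 65 without the trend. Leaving out 1 library gave 16 to 38 higher and 43 to 77 lower genes, with fewer samples in each fit. With the replicate number as a block, 27 were higher and 54 lower, Cirbp passed and Rbm3 did not, and 4 heat-shock genes, 0 SR genes and 0 clock genes passed. Deviations of same-numbered libraries had correlations of -0.110, 0.0372 and -0.0791, and those of differently numbered libraries lay between -0.100 and 0.190. With 3 libraries a group, such values cannot show whether the number pairs libraries. For the members, chosen on this comparison, these are descriptions: Cirbp was below 0 in 15 of 15 alternatives and past the threshold in the same 15, and Rbm3 was below 0 in 15 and past it in 4: the pseudocount of 0.1, the mean of at least 5 FPKM, quantile normalization and array weights. Clk1 and Clk4 were above 0 in 15, Clk2 in 9, Clk3 in 14, Srsf5 in 15 and Srsf6 in 3. The cause of these differences was not tested. Thbs1 passed in 1 alternative, without control library 2 (log2 change 1.26, adjusted p = 0.0343). Member values rest on 1850 to 31277 reads a library.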
